A study of Mus musculus with 6 samples.

Results

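The 32 genes described here encode the route by which a cell takes up glucose, breaks it down to pyruvate and lactate, or diverts it into the pentose phosphate pathway. They are the glucose transporter gene Slc2a1, the enzymes of glycolysis with 3 genes of its PFKFB regulators, the enzymes and transporters of lactate, 7 genes of the pentose phosphate pathway, and the regulators Pdk1 and Hif1a. The list was taken by gene symbol and matched to Entrez identifiers, so the 32 genes are 32 of the 36528 identifiers measured. All 32 were among the 15585 genes with enough counts to be tested.

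The measurements were RNA sequencing counts from cultured mouse microglia, the brain's own macrophages. There were 3 groups with 2 libraries each. They were untreated wild-type cells (WT), untreated cells labelled as Cop1 knockout (KO) with a label that also names loxP, and WT cells exposed to LPS (lipopolysaccharide, from bacterial outer membranes), which activates macrophages through Toll-like receptor 4. Cop1 encodes a ubiquitin ligase that marks transcription factors, C/EBPβ among them, for degradation. The labels used here give no strain, age, Cre driver, LPS dose or LPS time, and no KO library was treated with LPS. Whether the libraries of a group are separate cultures or animals is not stated, and each p-value therefore reflects only library-to-library spread, which may be technical.

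Total counts ran from 20568144 to 22553708 per library. Cop1 was listed at 12.7 and 11.5 CPM in WT (read counts per library size, scaled by the trimmed mean of M-values, TMM) and at 8.06 and 9.23 CPM in KO. The difference was -0.49 on the log2 scale (SE 0.11, adjusted p = 0.00016, edgeR quasi-likelihood test with Benjamini-Hochberg adjustment, as for every adjusted p given here), so transcripts counted to the gene remained in the KO libraries. With LPS, Cop1 was at 23.4 and 27.2 CPM, above WT by 1.06 (SE 0.10, adjusted p = 1.7e-14). The direct contrast of KO with LPS for Cop1 was -1.54 (SE 0.11, adjusted p = 2.4e-19). Of the microglial markers, the receptor gene Csf1r reached 931 to 4060 CPM, Tmem119 1.23 to 8.28 CPM, and Siglech had 2 counts in 1 WT library and 0 in the others. Markers of other cells also differed between the groups. The 12 astrocyte markers summed to 788 and 791 CPM in WT, 55.1 and 50.9 CPM in KO and 879 and 886 CPM with LPS, with Gjb6 at 0 in every library. The 10 neuronal markers summed to 62.7 and 63.8 CPM in WT, 3.74 and 4.81 CPM in KO and 58.9 and 60.8 CPM with LPS. The 16 cell cycle genes summed to 498 and 511 CPM in WT, 156 and 158 CPM in KO and 145 CPM in each LPS library. Of the tested markers in KO against WT, 10 of 11 astrocyte markers and 8 of 8 neuronal markers were lower, and 8 of 10 microglial markers were higher with summed levels of 5771 and 5782 CPM in WT and 8860 and 8886 CPM in KO. With LPS the microglial markers summed to 3747 and 3847 CPM, and 4 of the 10 were higher and 6 lower than in untreated WT. The 8 fibroblast markers summed to 1044 and 1058 CPM in WT, 816 and 815 CPM in KO and 852 and 858 CPM with LPS. Of the 7 tested, 4 were higher and 3 lower in KO, and 2 were higher and 1 lower with LPS. Of all tested genes, 58.4% were called in KO and 73.7% with LPS. The 9 oligodendrocyte markers summed to 238 and 233 CPM in WT, 132 and 133 CPM in KO and 163 and 154 CPM with LPS. The 8 endothelial and mural markers summed to 23.5 and 25.2, 45.9 and 42.2, and 93.9 and 92.6 CPM in the same order. The 8 monocyte and neutrophil markers summed to 22.5 and 21.8, 5.4 and 5.12, and 176 and 183 CPM. With LPS, Vcan alone was 173 and 179 CPM of the last sum. All these values stand beside every KO and LPS comparison that follows, and their part in those results was not tested. In bulk RNA, fewer cells of a type and less RNA per cell cannot be told apart.

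Glycolysis begins when a hexokinase traps glucose in the cell as a phosphate ester, is committed at phosphofructokinase, and ends in pyruvate, which lactate dehydrogenase can turn into lactate. The PFKFB enzymes set the amount of the sugar bisphosphate that switches phosphofructokinase on. The oxidative arm of the pentose phosphate pathway makes NADPH, which macrophages use both for antioxidant defence and for their oxidant burst, and the non-oxidative arm returns its sugars to glycolysis. Macrophages given LPS are known to raise glycolysis, with the transcription factor HIF1A as a known driver.

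The promoters of 6 genes are shown as examples of the patterns seen among the members. They were chosen after the values were seen, and other members differed by more than some of these. Hk3 and Pfkp were highest with LPS, Hk2 was higher in both comparisons, Ldha moved in opposite directions, Slc16a1 was lowest in KO, and Taldo1 was higher in KO and lower with LPS. Each run is the 250 bases before the most upstream start of the gene in RefSeq's promoter table for build GRCm38.p6. It is read 5′ to 3′ in the direction of the gene. The annotated spans of Ldha, Pfkp and Hk3 begin further upstream than these starts. The runs of Ldha and Pfkp therefore lie inside the annotated gene, and that of Hk3 lies partly inside. Capitals mark the core letters bound by HIF1A, ACGTG or GCGTG on either strand.
Hk3, chr13:55021386-55021635, minus strand: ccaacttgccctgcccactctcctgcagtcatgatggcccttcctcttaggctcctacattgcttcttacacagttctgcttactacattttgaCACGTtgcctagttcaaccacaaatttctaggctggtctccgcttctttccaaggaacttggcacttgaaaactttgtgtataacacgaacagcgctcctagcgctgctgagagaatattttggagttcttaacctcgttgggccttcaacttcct
Hk2, chr6:82774455-82774704, minus strand: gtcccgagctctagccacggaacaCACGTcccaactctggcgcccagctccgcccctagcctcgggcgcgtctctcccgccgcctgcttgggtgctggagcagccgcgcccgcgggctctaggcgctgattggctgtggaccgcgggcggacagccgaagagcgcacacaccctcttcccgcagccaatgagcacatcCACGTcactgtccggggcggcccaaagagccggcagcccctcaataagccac
Pfkp, chr13:6648772-6649021, minus strand: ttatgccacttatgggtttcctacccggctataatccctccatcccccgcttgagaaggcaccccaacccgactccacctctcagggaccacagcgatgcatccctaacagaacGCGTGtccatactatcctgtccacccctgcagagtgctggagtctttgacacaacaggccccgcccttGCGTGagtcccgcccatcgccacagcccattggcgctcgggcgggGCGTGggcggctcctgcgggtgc
Ldha, chr7:46845554-46845803, plus strand: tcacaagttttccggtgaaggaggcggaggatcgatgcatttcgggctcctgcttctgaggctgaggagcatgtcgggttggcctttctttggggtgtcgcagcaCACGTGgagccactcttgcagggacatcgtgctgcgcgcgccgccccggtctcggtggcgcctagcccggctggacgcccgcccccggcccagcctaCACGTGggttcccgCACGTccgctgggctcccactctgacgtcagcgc
Slc16a1, chr3:104638414-104638663, plus strand: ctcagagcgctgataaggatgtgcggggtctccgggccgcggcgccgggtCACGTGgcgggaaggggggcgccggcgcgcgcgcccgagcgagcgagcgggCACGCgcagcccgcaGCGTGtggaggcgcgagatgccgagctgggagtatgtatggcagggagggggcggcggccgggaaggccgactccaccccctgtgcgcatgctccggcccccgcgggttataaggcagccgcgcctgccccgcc
Taldo1, chr7:141391910-141392159, plus strand: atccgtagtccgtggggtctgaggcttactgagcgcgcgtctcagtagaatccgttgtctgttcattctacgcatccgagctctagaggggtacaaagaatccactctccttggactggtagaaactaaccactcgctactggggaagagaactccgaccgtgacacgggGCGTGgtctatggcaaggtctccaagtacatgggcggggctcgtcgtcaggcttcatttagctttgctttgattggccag

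The HIF core letters were searched in all 47 promoters that RefSeq gives the 32 genes, beside the 32851 promoters of all genes, in the same 250 bases and on both strands. ACGTG was in 38.3% of the member promoters and in 16.6% of all promoters, and GCGTG was in 53.2% against 28.2%. Some promoters of a gene overlap, as for Aldoa and Eno1, so 1 site can be counted in more than 1 promoter. By gene, ACGTG was found for 14 and GCGTG for 21 of the 32 members. Within the 6 promoters shown, counted by strand, Ldha held 5 such cores, Slc16a1 held 4, Pfkp 3, Hk2 2, and Hk3 and Taldo1 1 each. CACGTG holds a core on each strand, and each strand was counted. Ldha has 2 such stretches and Slc16a1 has 1, so neither holds more separate sites than Pfkp. The longer letters CACGTG, an E-box that contains ACGTG, were in 12.8% of the member promoters and 6.02% of all, and the C/EBP letters TTNNGCAA were in 8.51% against 9.56%. The member promoters were richer in G and C, with a median of 60.4% against 52.4%. Letters of this kind describe a window and do not show that a factor binds there.

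In KO against WT, 12 of the 32 genes were higher, 13 were lower and 7 did not pass an adjusted p of 0.05. That is 78.1% called, where 58.4% of all tested genes were called (28.1% higher and 30.3% lower). The median log2 fold change of the 32 genes was -0.06, and that of all tested genes was -0.01. With LPS against untreated WT, 11 were higher, 16 were lower and 5 did not pass, which is 84.4% called beside 73.7% of all tested genes (30.2% higher and 43.4% lower). The median was -0.19 for the 32 genes and -0.18 for all. Changes of at least 2-fold in KO were 0 higher and 2 lower among the 32, where 17.8% of all tested genes were called at that size (3.3% higher and 14.5% lower). With LPS they were 5 higher and 2 lower, where 33.1% were (14.9% higher and 18.2% lower). In both comparisons the median of the list lay near that of all genes.

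The split of small changes by direction depended on how libraries were scaled. With median-of-ratios scaling the calls were 14 higher and 8 lower in KO, and 14 higher and 13 lower with LPS. With library size alone they were 5 higher and 20 lower in KO, and 6 higher and 24 lower with LPS. Over all genes, the median change under TMM, median-of-ratios and library-size scaling was -0.01, 0.08 and -0.20 (log2) in KO, and -0.18, -0.04 and -0.74 with LPS. The genes called the same way under all 15 alternatives to the processing were Hk2, Pfkfb4, Pgls, Pgd and Taldo1 (higher in KO), Pfkm, Ldha, Ldhb and Slc16a1 (lower in KO), Hk2, Hk3, Pfkp, Pfkfb3, Hif1a and Rpe (higher with LPS), and Gpi1, Pfkm, Pfkfb2, Pfkfb4, Tpi1, Ldhb, Slc16a3, Tkt and Taldo1 (lower with LPS).

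**Figure D1:**
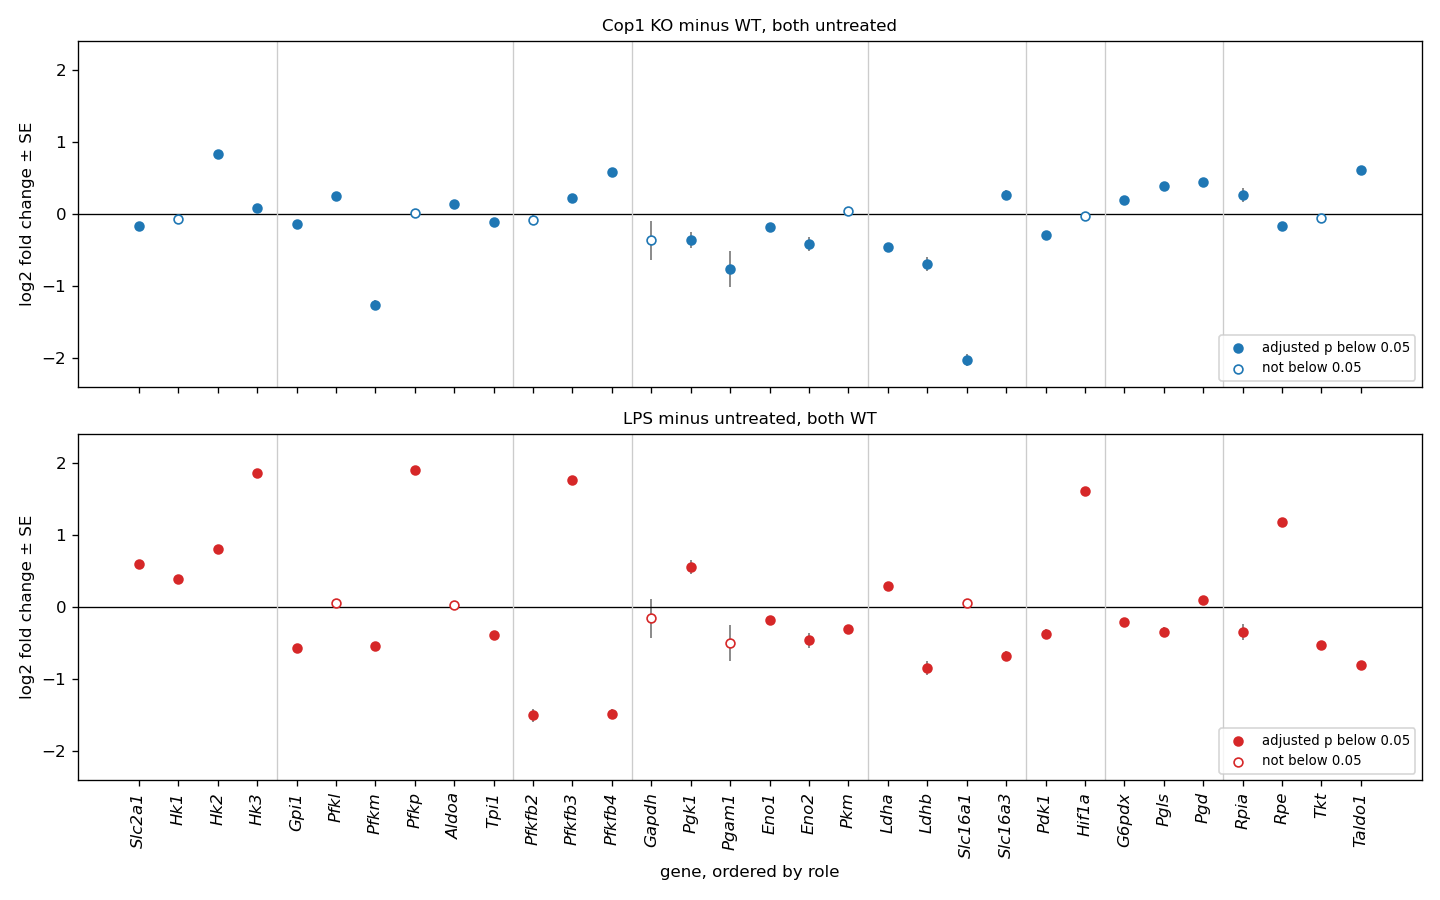
Log2 fold change of each gene with its standard error, KO against WT above and LPS against untreated WT below, both against the same 2 untreated WT libraries. Filled points passed an adjusted p of 0.05, and the lowest point in the upper panel is Slc16a1 at -2.02, while the highest in the lower panel is Pfkp at 1.91.

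Glucose entry and trapping was higher with LPS in all 4 genes, where 30.2% of all tested genes were higher. Under library-size scaling Slc2a1 did not pass with LPS and Hk1 was lower. In KO, Hk2 and Hk3 were higher and Slc2a1 lower. Hk3, the myeloid hexokinase, stood at 547 and 531 CPM in WT, 579 and 561 CPM in KO, and 2017 and 1889 CPM with LPS. The LPS libraries stood far above both other groups, and Hk3 rose 3.62-fold with LPS (log2 fold change 1.86, SE 0.03, adjusted p = 4.7e-47). Its KO difference was 0.08 on the log2 scale (adjusted p = 0.021), which was lost without WT replicate 2 or without KO replicate 1 and turned to -0.11 under library-size scaling.

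Hk2, the inducible hexokinase that binds mitochondria, stood at 64.6 and 66.1 CPM in WT, 117 and 118 CPM in KO, and 111 and 118 CPM with LPS. The KO and LPS libraries overlapped and both lay above WT. Hk2 rose 1.79-fold in KO (log2 0.84, SE 0.04, adjusted p = 3.9e-23) and 1.75-fold with LPS (log2 0.81, SE 0.05, adjusted p = 2.3e-22). The direct contrast of KO with LPS was 0.03 on the log2 scale (SE 0.04, adjusted p = 0.47), a test that does not show equal levels.

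Slc2a1, which encodes the glucose transporter GLUT1, stood at 128 and 126 CPM in WT, 119 and 108 CPM in KO, and 196 and 188 CPM with LPS. The LPS libraries were above all others, by 0.60 on the log2 scale (SE 0.04, adjusted p = 6.6e-19), a value that dropped to 0.03 under library-size scaling. The KO difference of -0.16 (adjusted p = 0.00078) was lost without KO replicate 2 and under median-of-ratios scaling. Hk1, the housekeeping hexokinase, was higher with LPS by 0.39 on the log2 scale (adjusted p = 9.6e-11), which became -0.17 under library-size scaling, and did not pass in KO (-0.07, adjusted p = 0.23). Hk1 was called lower in KO under library-size scaling, by -0.26.

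**Figure D2:**
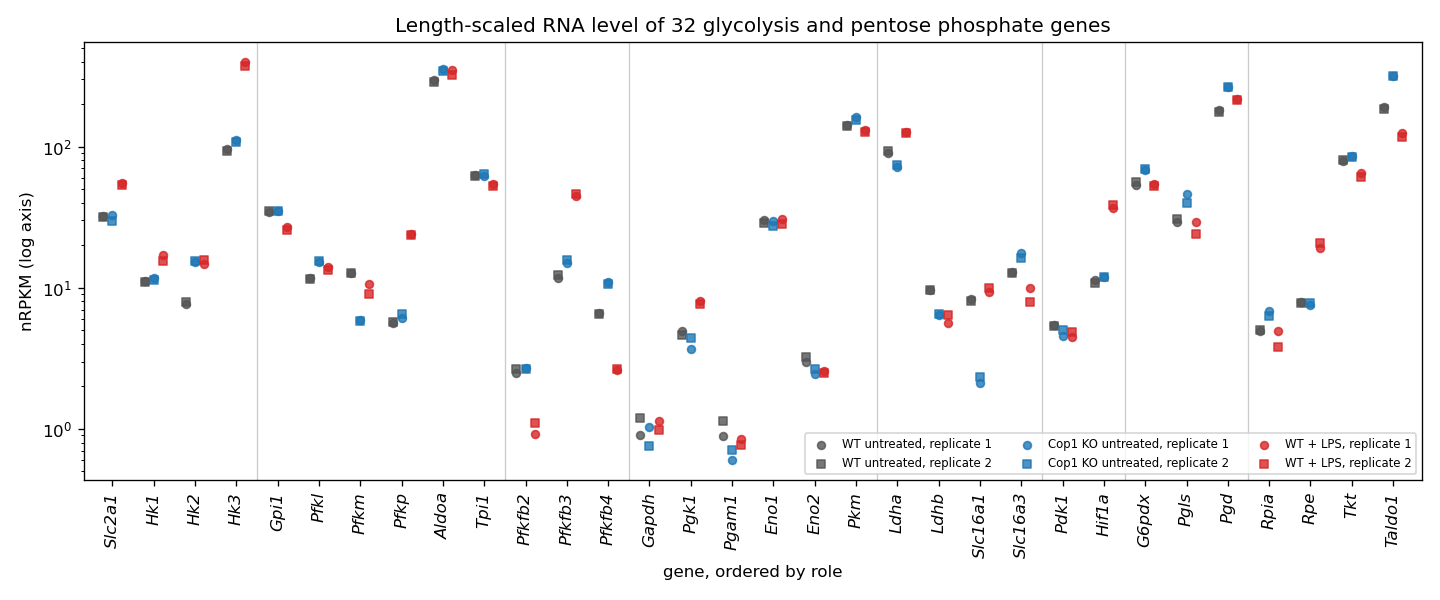
Length-scaled level (nRPKM, log axis) of each gene in each of the 6 libraries, ordered by role, with untreated WT in grey, KO in blue and LPS in red. Aldoa is highest in WT at 296 and 287 nRPKM and the lowest points, at about 1 nRPKM, are Gapdh and Pgam1.

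Per length, Hk3 made up most of the hexokinase message in every library. On the authors' length-scaled values (nRPKM), which allow genes to be compared, it was 83.6% and 83.1% of the summed Hk1, Hk2 and Hk3 level in WT, 80.4% and 80.1% in KO, and 92.5% and 92.3% with LPS. The share of Hk2 was 6.71% and 7.05% in WT, 11.1% and 11.4% in KO, and 3.48% and 3.91% with LPS, so Hk2 rose in level with LPS while its share was lower than in WT. A share within a library does not depend on the scaling between libraries. With 2 libraries a group, these shares are given without a test.

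The committed step changed by isoform. Pfkp, the platelet-type phosphofructokinase, stood at 93.8 and 94.0 CPM in WT, 92.8 and 98.1 CPM in KO, and 356 and 351 CPM with LPS. Only the LPS libraries stood apart, and Pfkp rose 3.77-fold (log2 1.91, SE 0.04, adjusted p = 3.5e-43), while the KO difference was 0.02 (adjusted p = 0.65). Pfkp in KO passed under 4 alternatives, median-of-ratios scaling and the 3 limma settings, by up to 0.15, and was lower by -0.17 under library-size scaling. Pfkm, the muscle-type isoform, stood at 62.4 and 62.9 CPM in WT, 26.3 and 25.9 CPM in KO, and 46.7 and 39.4 CPM with LPS. The groups did not overlap, and Pfkm was lowest in KO, 2.4-fold below WT (log2 -1.26, SE 0.07, adjusted p = 2.2e-23) and lower with LPS by a log2 of -0.54 (SE 0.06, adjusted p = 8.7e-11). Pfkl, the liver-type isoform, was higher in KO by 0.25 (adjusted p = 1.4e-05) and did not pass with LPS (0.06, adjusted p = 0.30). Under library-size scaling the Pfkl difference in KO did not pass. Pfkl with LPS was called higher under 6 alternatives, with median-of-ratios scaling, DESeq2, a fit of the groups compared alone and the 3 limma settings, by up to 0.22, and was -0.50 under library-size scaling.

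In nRPKM, Pfkl held 39.1% and 38.6% of the phosphofructokinase message in WT and Pfkm held 42.1% and 42.6%. In KO the share of Pfkl was 55.7% and 55.8%, with Pfkm at 21.7% and 20.8%. With LPS the share of Pfkp was 49.4% and 51.6%, against 18.8% in each WT library. Per length, the highest mean share was that of Pfkm in WT, Pfkl in KO and Pfkp with LPS. In CPM, which does not correct for length, Pfkp had the highest share in all 3 groups, at 42.5% in WT, 48.1% in KO and 76.3% with LPS.

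The PFKFB genes moved in opposite directions with LPS. Pfkfb3, whose enzyme strongly favours making the activator of phosphofructokinase, stood at 110 and 115 CPM in WT, 128 and 134 CPM in KO, and 377 and 385 CPM with LPS. It rose 3.39-fold with LPS (log2 1.76, SE 0.04, adjusted p = 7.5e-42), and its KO difference of 0.22 (adjusted p = 3.9e-06) did not pass under library-size scaling. Pfkfb4 stood at 57.3 and 56.0 CPM in WT, 85.8 and 84.2 CPM in KO, and 20.2 and 20.4 CPM with LPS. The 3 groups did not overlap, and the gene was 1.5-fold higher in KO (log2 0.59, SE 0.05, adjusted p = 1.5e-14) and 2.79-fold lower with LPS (log2 -1.48, SE 0.07, adjusted p = 1.1e-26). The direct contrast of KO with LPS for Pfkfb4 was 2.06 (SE 0.07, adjusted p = 5.4e-34), a 4.18-fold higher level in KO. Pfkfb2 stood at 35.3 and 37.9 CPM in WT, 35.3 and 34.2 CPM in KO, and 11.8 and 14.1 CPM with LPS. It fell 2.83-fold with LPS (log2 -1.50, SE 0.09, adjusted p = 2.7e-22) and did not pass in KO (-0.08, adjusted p = 0.35). Under library-size scaling Pfkfb2 was called lower in KO, by -0.27. In nRPKM, Pfkfb3 was 56.1% and 57.2% of the PFKFB message in WT, 52.3% and 53.9% in KO, and 92.7% and 92.4% with LPS.

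**Figure D3:**
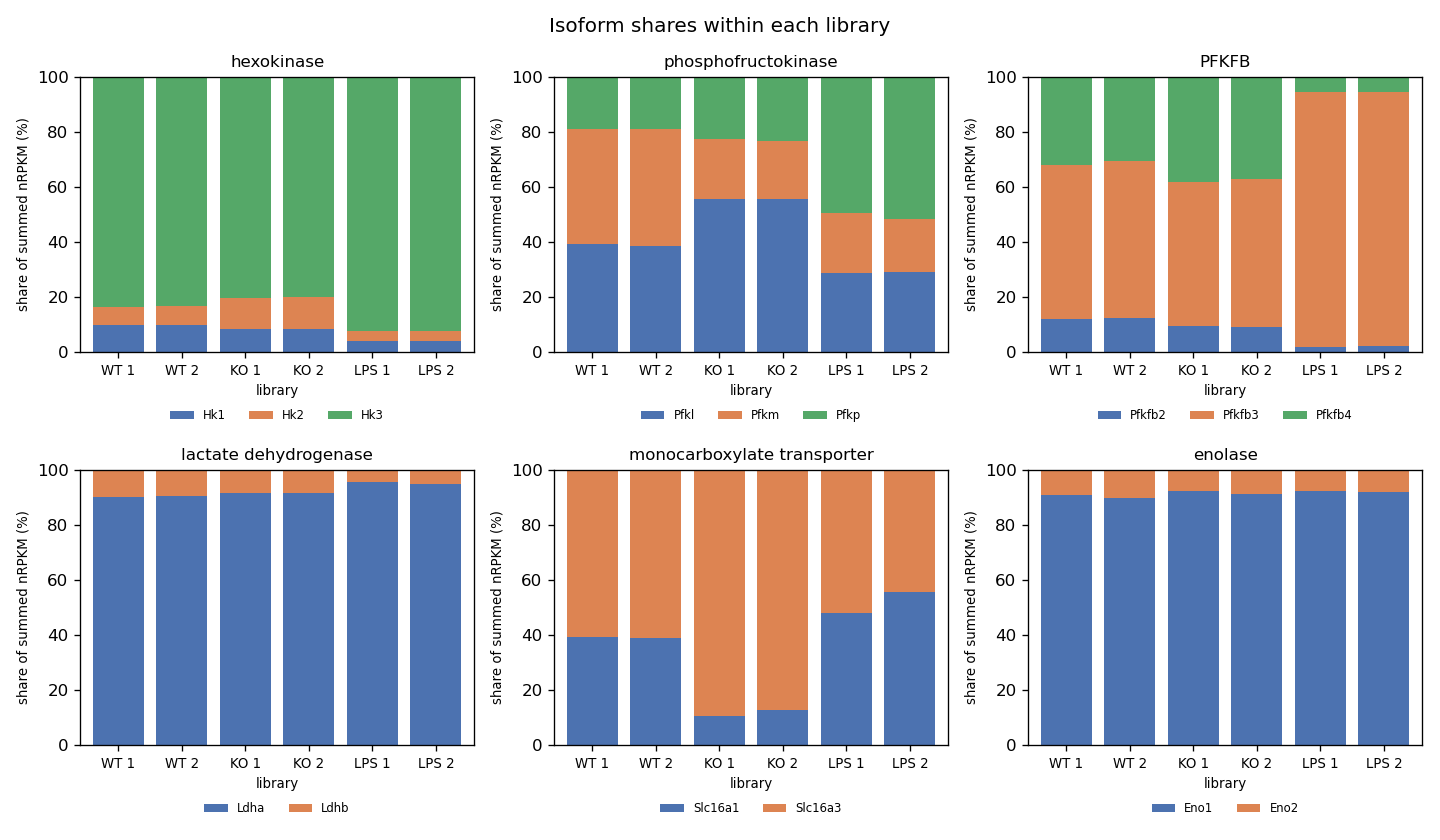
Share of each isoform in the summed nRPKM of its enzyme family, as stacked bars for each of the 6 libraries (WT, KO and LPS, 2 each). Pfkp grows from 18.8% in each WT library to 49.4% and 51.6% with LPS, Pfkfb3 from 56.1% and 57.2% to 92.7% and 92.4%, and Slc16a1 shrinks from 39.1% and 39.0% in WT to 10.6% and 12.6% in KO.

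The remaining enzymes of upper glycolysis changed less. Gpi1, the isomerase that follows hexokinase, was lower with LPS by a log2 of -0.57 (SE 0.04, adjusted p = 6.4e-18), from 148 and 150 CPM in WT to 103 and 97.3 CPM. Its KO difference was -0.13 (adjusted p = 0.0041), which was lost without WT replicate 2 and under median-of-ratios scaling. Tpi1, triosephosphate isomerase, was lower with LPS by -0.38 (adjusted p = 5.9e-12). Its KO difference of -0.11 (adjusted p = 0.013) was lost without either WT library or KO replicate 1, and under median-of-ratios scaling. Aldoa, the main aldolase of most tissues, was 844 and 819 CPM in WT and 931 and 899 CPM in KO, higher by 0.14 (adjusted p = 0.00013), a direction that became -0.05 under library-size scaling. With LPS it was 885 and 815 CPM, overlapping WT (0.03, adjusted p = 0.36), and it was called higher under 7 alternatives, with median-of-ratios scaling, DESeq2, a fit of the groups compared alone, the 3 limma settings and without LPS replicate 2, by up to 0.19. It was -0.53 under library-size scaling.

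In lower glycolysis 4 of 6 genes were lower in KO and none was higher, where 30.3% of all tested genes were lower, and with LPS 3 were lower and Pgk1 was higher. The KO count depended on the test, since with DESeq2 none of the calls for Eno1, Eno2, Pgk1 and Pgam1 was kept and Pkm was called higher. Pkm, pyruvate kinase, was the highest of these genes per length, at 143 and 139 nRPKM in WT. It stood at 671 and 654 CPM in WT, 695 and 663 CPM in KO, and 551 and 526 CPM with LPS. The LPS libraries were below the others, by -0.30 on the log2 scale (SE 0.03, adjusted p = 2.1e-12), and KO overlapped WT (0.04, adjusted p = 0.32). Pkm was called higher in KO under 5 alternatives, with median-of-ratios scaling, DESeq2 and the 3 limma settings, by up to 0.17, and lower under library-size scaling, by -0.16. Eno1, the general enolase, was lower by -0.18 in KO (adjusted p = 0.0013) and by -0.17 with LPS (adjusted p = 0.0018). The KO call was lost without WT replicate 1 or KO replicate 2 and the LPS call without WT replicate 1 or LPS replicate 2, and both were lost under median-of-ratios scaling. Eno2, the neuronal enolase, was lower by -0.41 in KO (adjusted p = 0.0003) and by -0.46 with LPS (adjusted p = 9.9e-05), and neither passed with DESeq2. Pgk1, which makes the first ATP of glycolysis, was 13.1 and 12.3 CPM in WT, 9.0 and 10.6 CPM in KO, and 19.0 and 18.2 CPM with LPS. The groups did not overlap, and the log2 fold changes were -0.36 in KO (SE 0.11, adjusted p = 0.0025), lost without KO replicate 1, and 0.56 with LPS (SE 0.10, adjusted p = 1.5e-06), which was -0.01 under library-size scaling.

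Gapdh and Pgam1 were listed at very low levels. Gapdh, the dehydrogenase often used as a reference gene, had 44 and 62 counts in WT, 41 and 30 in KO, and 35 and 28 with LPS, or 0.753 to 1.2 nRPKM. It did not pass in KO (log2 -0.36, SE 0.27, adjusted p = 0.25) or with LPS (-0.15, SE 0.27, adjusted p = 0.62). Pgam1, phosphoglycerate mutase, had 61 and 83 counts in WT, 33 and 40 in KO, and 37 and 31 with LPS. The KO difference of -0.76 (SE 0.25, adjusted p = 0.0059) was lost without WT replicate 2 or KO replicate 1, and the LPS difference of -0.49 did not pass (adjusted p = 0.073).

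The deposited counts hold only reads that align to 1 place in the genome, and several members have copies elsewhere. Of all windows of 50 bases, the read length, in the coding transcripts of Gapdh, 58.4% were also found in transcripts of other annotated genes, 213 of them pseudogenes. The share was 68.0% for Pgk1, 49.5% for Eno1 and 41.5% for Pgam1, each with annotated pseudogene copies. For Hk2, Hk3, Pfkfb4, Slc16a1, Slc16a3, Pdk1, Pgls, Pgd, Rpia and Tkt it was 0. The levels of Gapdh, Pgk1, Pgam1 and Eno1 relative to other genes are therefore uncertain, and the part of these copies in their low values was not tested. With smaller shares, the same limit applies to Pfkfb2, Gpi1, Pkm and Ldhb, and to isoform shares in nRPKM that include such genes. Annotated neighbours on either strand also overlapped the exons of some members, by up to 20.6% for Pgls with Fam129c, 17.9% for Rpe with Kansl1l, 17.4% for Pfkfb2 with Gm29427, 15.3% for Pkm with Gm49759 and 13.6% for G6pdx with Ikbkg, and the kit does not mark strand.

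**Figure D4:**
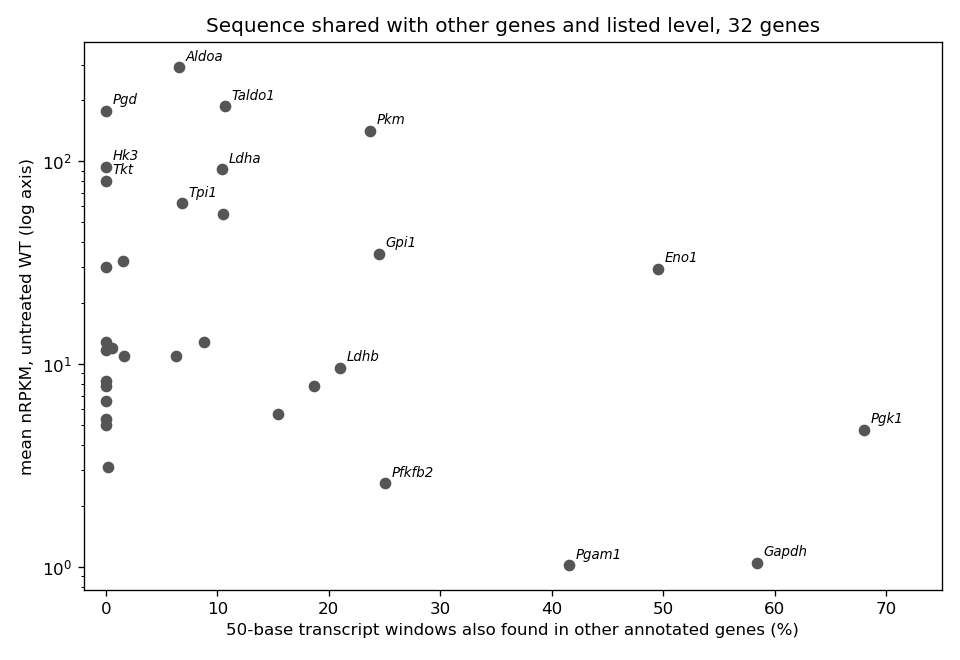
Mean nRPKM in untreated WT (log axis) against the share of 50-base windows of each gene's coding transcripts that also occur in other annotated genes, 1 point per gene. Gapdh (58.4%), Pgk1 (68.0%) and Pgam1 (41.5%) lie at the right with levels under 5 nRPKM, while Eno1 (49.5%) has a level of 30.4 and 28.9 nRPKM in the WT libraries.

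Lactate handling was lower in KO in 3 of 4 genes, where 30.3% of all tested genes were lower. Slc16a1, which encodes the monocarboxylate transporter MCT1 that carries lactate across the membrane in either direction, stood at 54.6 and 53.2 CPM in WT, 12.6 and 14.0 CPM in KO, and 54.5 and 58.2 CPM with LPS. The KO libraries lay far below the other groups, which overlapped. Slc16a1 fell 4.05-fold in KO (log2 -2.02, SE 0.08, adjusted p = 3e-30), the largest change of the 32 genes in that comparison, and the LPS difference was 0.06 (SE 0.06, adjusted p = 0.35). Slc16a1 with LPS was called higher under 6 alternatives, the same as those for Pfkl, by up to 0.22, and was lower by -0.50 under library-size scaling. Slc16a3, which encodes the lactate exporter MCT4, stood at 49.5 and 48.4 CPM in WT, 61.5 and 56.6 CPM in KO, and 34.2 and 26.8 CPM with LPS. It was higher in KO by 0.27 (adjusted p = 0.00021), not past the test under library-size scaling, and lower with LPS by a log2 of -0.68 (SE 0.07, adjusted p = 4.3e-12). In nRPKM, Slc16a1 was 39.1% and 39.0% of the summed level of both transporters in WT, 10.6% and 12.6% in KO, and 48.1% and 55.8% with LPS.

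Ldha, the lactate dehydrogenase subunit that favours making lactate, stood at 255 and 265 CPM in WT, 188 and 192 CPM in KO, and 322 and 317 CPM with LPS. The 3 groups did not overlap. Ldha was lower in KO by a log2 of -0.45 (SE 0.03, adjusted p = 9.2e-17) and higher with LPS by 0.30 (SE 0.03, adjusted p = 3.8e-11), the latter turning to -0.27 under library-size scaling. The direct contrast of KO with LPS for Ldha was -0.75 (SE 0.04, adjusted p = 4.7e-26). Ldhb, the subunit that favours using lactate, was 18.6 and 18.5 CPM in WT, 11.4 and 11.5 CPM in KO, and 9.73 and 11 CPM with LPS. It was lower in both comparisons, by -0.69 in KO (SE 0.10, adjusted p = 7.6e-09) and -0.84 with LPS (SE 0.10, adjusted p = 1.8e-10).

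Of the regulators, Hif1a changed with LPS. The gene, whose product is the oxygen-sensitive transcription factor HIF1A, stood at 79.4 and 75.8 CPM in WT, 76.7 and 76.1 CPM in KO, and 231 and 241 CPM with LPS. The LPS libraries stood apart and KO overlapped WT. Hif1a rose 3.04-fold with LPS (log2 1.61, SE 0.04, adjusted p = 4.6e-38), and its KO difference was -0.02 (SE 0.04, adjusted p = 0.72). Library-size scaling called Hif1a lower in KO, by -0.21. Pdk1, the kinase that shuts off pyruvate dehydrogenase, was lower by -0.29 in KO (adjusted p = 6.6e-05) and by -0.37 with LPS (adjusted p = 1.5e-06), the former not past the test with limma on nRPKM.

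The oxidative arm of the pentose phosphate pathway was higher in KO in all 3 genes, by 0.20 to 0.44 on the log2 scale. Of all tested genes, 28.1% were higher in KO. Pgd, phosphogluconate dehydrogenase, stood at 595 and 587 CPM in WT, 801 and 800 CPM in KO, and 640 and 625 CPM with LPS. The KO libraries were highest, and Pgd was higher in KO by 0.44 (SE 0.03, adjusted p = 4e-19) and with LPS by 0.10 (SE 0.03, adjusted p = 0.0023), the LPS call being lost without WT replicate 2 and reversed to -0.46 under library-size scaling. G6pdx, the NADPH-making first enzyme of the arm, was 205 and 218 CPM in WT, 242 and 245 CPM in KO, and 187 and 181 CPM with LPS. The groups did not overlap, with log2 fold changes of 0.20 in KO (adjusted p = 2.5e-06), lost under library-size scaling, and -0.20 with LPS (adjusted p = 3.8e-06), lost under median-of-ratios scaling. Pgls, the lactonase between them, was higher in KO by 0.39 (SE 0.06, adjusted p = 5.4e-07) and lower with LPS by -0.34 (adjusted p = 2.4e-05), the latter not past the test with DESeq2.

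The non-oxidative arm diverged between its enzymes. Taldo1, transaldolase, stood at 358 and 346 CPM in WT, 542 and 543 CPM in KO, and 209 and 195 CPM with LPS. The 3 groups did not overlap, and Taldo1 rose 1.54-fold in KO (log2 0.62, SE 0.03, adjusted p = 2.6e-23) and fell 1.74-fold with LPS (log2 -0.80, SE 0.04, adjusted p = 2.8e-27). The contrast of KO with LPS for Taldo1 was 1.43 (SE 0.03, adjusted p = 6.3e-39), a 2.69-fold higher level in KO. Rpe, the pentose phosphate epimerase, stood at 36.7 and 36.2 CPM in WT, 32 and 32.8 CPM in KO, and 79.1 and 86.1 CPM with LPS. It rose 2.27-fold with LPS (log2 1.18, SE 0.06, adjusted p = 8.4e-25) against the other 3 genes of the arm, and its KO difference of -0.17 (adjusted p = 0.021) was lost without either WT library or KO replicate 1, and under median-of-ratios scaling. Tkt, transketolase, fell with LPS from 377 and 382 CPM to 275 and 256 CPM (log2 -0.52, SE 0.03, adjusted p = 1.2e-19) and did not pass in KO (-0.05, adjusted p = 0.25). Tkt was called lower in KO under library-size scaling, by -0.24. Rpia, the pentose phosphate isomerase, was higher in KO by 0.27 (adjusted p = 0.019), lost without either WT library or KO replicate 1, and lower with LPS by -0.34 (adjusted p = 0.0055), lost without LPS replicate 2 and under median-of-ratios scaling.

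**Figure D5:**
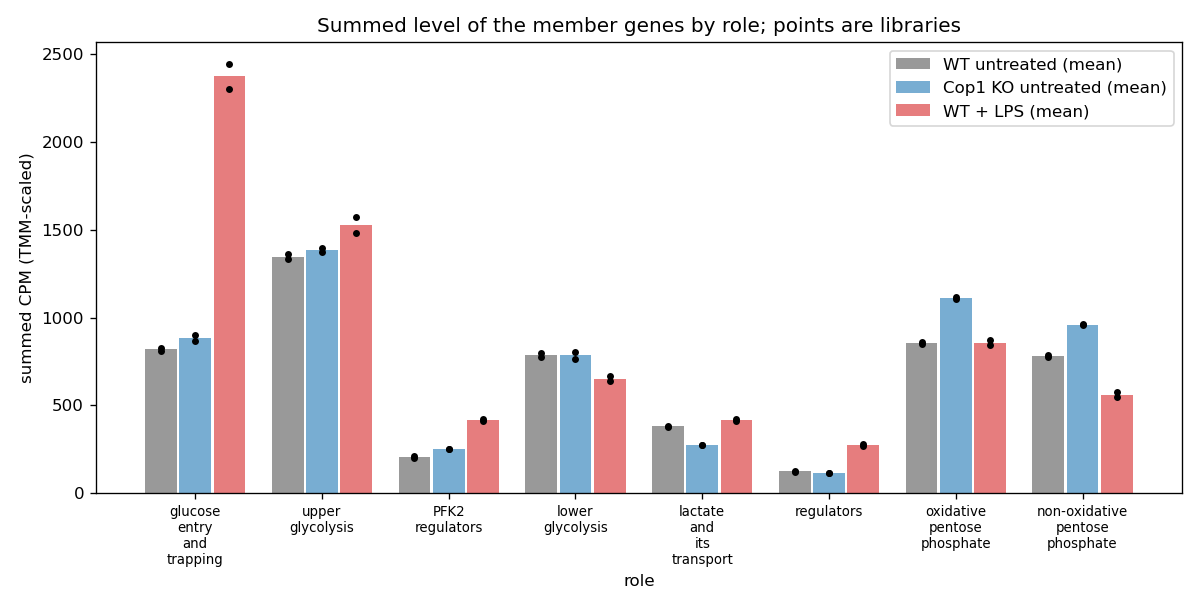
Summed TMM-scaled CPM of the genes of each role, bars as means of the 2 libraries of a group and points as the libraries. Glucose entry and trapping is 828 and 809 CPM in WT and 2445 and 2303 CPM with LPS, and the pentose phosphate arms are highest in KO.

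Summed by role, the genes of the oxidative arm reached 851 and 858 CPM in WT, 1116 and 1108 CPM in KO, and 872 and 843 CPM with LPS. Those of the non-oxidative arm reached 785 and 778 CPM in WT, 961 and 957 CPM in KO, and 574 and 545 CPM with LPS. The lactate genes summed to 378 and 385 CPM in WT, 274 CPM in each KO library, and 420 and 413 CPM with LPS. As a share of raw counts the lactate genes were lower with LPS than in WT, at 0.0338% and 0.0333% against 0.045% and 0.0458%, and 0.0285% in each KO library. The oxidative arm was also lower with LPS on that scale, at 0.0702% and 0.0679% against 0.101% and 0.102% in WT. All 32 genes together reached 5328 and 5274 CPM in WT, 5813 and 5716 CPM in KO, and 7232 and 6919 CPM with LPS. Without Hk3, a choice made after its value was seen, the sums were 4781 and 4743, 5234 and 5154, and 5214 and 5030 CPM. As a share of raw counts the order was the opposite, 0.635% and 0.627% in WT, 0.606% and 0.595% in KO, and 0.582% and 0.557% with LPS, so no direction of the total holds under both scalings.

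The direct contrast of KO with LPS tests where the 2 states differ. Of the 32 genes 14 were higher in KO, 11 were lower and 7 did not pass, or 78.1% called, where 79.6% of all tested genes were called (39.9% higher and 39.6% lower). At least 2-fold apart were 3 higher and 6 lower, beside 41.7% of all tested genes (17.5% higher and 24.2% lower). Pfkp (-1.89), Hk3 (-1.78), Hif1a (-1.63), Pfkfb3 (-1.54) and Rpe (-1.35) were lower in KO than with LPS, as was Slc16a1 (-2.08). Pfkfb4 (2.06), Pfkfb2 (1.43) and Taldo1 (1.43) were higher in KO. The adjusted p was at most 5.4e-21 for each of these 9 genes, and 21 of the 25 calls were kept under all 15 alternatives.

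Genes next to these steps were counted on lists beyond the 32 members. Of all tested genes, 28.1% were higher and 30.3% lower in KO, and 30.2% were higher and 43.4% lower with LPS. Of 8 tested other glucose and fructose transporters, 3 were higher and 4 lower in KO, and 1 was higher and 5 lower with LPS. The one that rose was Slc2a6, a transporter of lysosomal membranes, at 17.3 and 16.2 CPM in WT, 33.7 and 30.4 CPM in KO, and 980 and 910 CPM with LPS (log2 5.82, SE 0.06, adjusted p = 5.7e-61). Of 18 tricarboxylic acid cycle genes, 13 were lower and none was higher in KO, with a median of -0.25, and 9 were lower and 5 higher with LPS. Citrate synthase, Cs, was among those lower in KO (-0.45, SE 0.04, adjusted p = 1.1e-15) and higher with LPS (0.36, SE 0.04, adjusted p = 3.8e-13). Of 13 genes of pyruvate entry into mitochondria, 7 were lower and none higher in KO, including Pdha1, the pyruvate dehydrogenase subunit (-0.57, SE 0.05, adjusted p = 4.3e-15). With LPS 7 were lower and 2 higher, with the kinase gene Pdk2 at -1.75 (SE 0.11, adjusted p = 7.8e-22) and Pdk3 at 1.04 (SE 0.10, adjusted p = 5.2e-14).

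Of the 8 tested other pentose phosphate genes, 3 were higher and 2 lower in KO, and 1 was higher and 6 lower with LPS. H6pd, the counterpart of G6pdx in the endoplasmic reticulum, was 111 and 109 CPM in WT, 198 and 197 CPM in KO, and 54.9 and 49.9 CPM with LPS. The groups did not overlap, with log2 fold changes of 0.85 in KO (SE 0.04, adjusted p = 2.9e-25) and -1.07 with LPS (SE 0.05, adjusted p = 1.3e-26). Of 10 tested other glycolytic isoenzymes, 2 were higher and 2 lower in KO, and 2 higher and 6 lower with LPS. Aldoc, an aldolase that is also on the astrocyte list, was 63.7 and 60.5 CPM in WT and 9.27 and 9.18 CPM in KO, lower by -2.75 on the log2 scale (SE 0.08, adjusted p = 1.1e-35). Of 18 HIF1A targets outside glycolysis, 6 were higher and 5 lower in KO, and 5 were higher and 9 lower with LPS. Among them Mxi1, a MYC antagonist, was lower with LPS by -2.88 on the log2 scale (SE 0.08, adjusted p = 3e-38).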

How the data were processed

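Polyadenylated RNA was sequenced single-end at 50 bases with a TruSeq kit, per the labels' protocols. The authors aligned reads with GSNAP to mouse build GRCm38, per the submitters' processing notes. GSNAP's version and the gene models counted were not given in the sources used here. Deposited count values are reads aligning uniquely per gene, per the file headers. Per the file headers, the deposited RPKM values (nRPKM) are reads per kilobase after scaling by the authors, with a factor for each library. Groups follow the treatment labels, and replicate numbers are only names. Names and models came from RefSeq and GENCODE on GRCm38, and counts of the 5401 unnamed identifiers (1.072% to 1.304% of each library) stayed in the test.

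Counts were tested with edgeR 4.0.16 in R 4.3.3 (filterByExpr by group, TMM, quasi-likelihood, 1 fit of all 6 libraries, Benjamini-Hochberg over 15585 genes, threshold 0.05), after a test of the script on simulated data. Alternatives were median-of-ratios or library-size scaling, DESeq2 1.42.0, no filter, a fit of the groups compared, limma 3.58.1 on log2(nRPKM + 1 or 0.1) with and without the filter, a fold minimum of 1.2, shares of CPM, and leaving out each library. The replicates differed by more than counting error (chi-square per degree of freedom 1.598 in WT, 1.995 in KO and 2.568 with LPS), so none was counted as a duplicate. Sequences were matched with Python 3.11.15. All members could be named, and of each other list up to 4 genes by smallest p. The members and lists were chosen with earlier results of these data known.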

Additional observations from a re-analysis of the deposited data

How the results depend on the processing

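No paired analysis was possible because the labels give no replicate numbers. Over the 15 alternatives, 1227 values kept direction and call, 117 lost the call, 39 gained it and 57 changed sign. The cause was not tested. Beside 13 members lower in KO, the count was 20 with library size only, 8 with median-of-ratios factors, 5 with DESeq2, 5 with a fold minimum of 1.2, 6 with limma at either pseudocount and 4 without its filter. Beside 12 members higher in KO, it was 5 with library size only and 5 with the fold minimum, and beside 11 higher with LPS it was 6 with library size only. Leaving out a library gave 10 to 12 higher and 9 to 13 lower in KO, 10 to 12 and 14 to 16 with LPS, and 13 to 14 and 11 in KO against LPS, where the lone library left in a group was assumed to vary like the others. Depth limits Gapdh and Pgam1 most, with 28 to 83 counts per library.

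As shares of CPM, in WT, KO and LPS, Hk3 was 78.0%, 74.0% and 89.5%, Pfkp 42.5%, 48.1% and 76.3%, Ldhb 6.67%, 5.7% and 3.15%, Slc16a1 52.4%, 18.4% and 65.0% and Eno2 14.4%, 12.6% and 12.2%. That of Pfkfb3 was 54.7% in WT and 92.0% with LPS.

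Signs changed as follows, in log2 fold change. With DESeq2 and with median-of-ratios factors alike, KO against WT became 0.02 for Hk1, 0.01 for Pfkfb2, 0.07 for Hif1a and 0.04 for Tkt, and KO against LPS became -0.02 for Hk2 and -0.01 for Eno2. With library size only, LPS against WT became -0.17 for Hk1, -0.50 for Pfkl, -0.53 for Aldoa, -0.01 for Pgk1, -0.27 for Ldha, -0.50 for Slc16a1 and -0.46 for Pgd. KO against WT became -0.11 for Hk3, -0.17 for Pfkp, -0.05 for Aldoa and -0.16 for Pkm, and KO against LPS became 0.16 for Gapdh, 0.09 for Pgam1 and 0.37 for Eno1. With limma in KO against WT, Hk1 became 0.06, Gpi1 0.00, Tpi1 0.02 and Tkt 0.08 in each of its 3 settings, while Pfkfb2 became 0.05 and Hif1a 0.11 at a pseudocount of 0.1 and 0.04 and 0.10 at 1, with or without the filter. Gapdh with LPS became 0.02 at 0.1 and 0.01 at 1. Without the count filter Eno1 in KO against LPS became 0.02. Leaving out a library, values crossed 0 for Hk2 in KO against LPS (-0.00 to 0.07), Pfkp in KO against WT (-0.01 to 0.07), Aldoa with LPS (-0.03 to 0.09), Gapdh with LPS (-0.34 to 0.06), Gapdh in KO against LPS (-0.45 to 0.02), Eno1 in KO against LPS (-0.06 to 0.07) and Hif1a in KO against WT (-0.05 to 0.01).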

Other observations

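Genes around the pathway on other lists showed the following. Beside every count in this section, 28.1% of all tested genes were higher and 30.3% lower in KO. With LPS, 30.2% of all tested genes were higher and 43.4% lower. Of 12 glycogen genes, 2 were higher and 8 lower in KO, and 3 were higher and 7 lower with LPS. Pygl, the liver-type glycogen phosphorylase, stood at 57.3 and 57.2 CPM in WT, 82.3 and 87.3 CPM in KO, and 12.5 and 13.3 CPM with LPS. It was higher in KO by 0.57 on the log2 scale (SE 0.05, adjusted p = 9e-14) and lower with LPS by -2.15 (SE 0.08, adjusted p = 6.5e-32). Of 5 tested genes of brakes and reverse steps of glycolysis, 2 were higher and 2 lower in KO, and none was higher and 4 were lower with LPS. Pcx, pyruvate carboxylase, fell to 6.53 and 7.2 CPM in KO from 32 and 34.3 CPM in WT (log2 -2.27, SE 0.10, adjusted p = 5.5e-28). The mitochondrial gene Pck2 was lower with LPS by -2.02 (SE 0.08, adjusted p = 2.2e-30).

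Of 5 tested lactate and monocarboxylate partners, 2 were higher and 2 lower in KO, and none was higher and 3 were lower with LPS. The transporter genes Slc16a6 (-2.32, SE 0.13, adjusted p = 5.7e-25) and Slc16a7 (-2.10, SE 0.14, adjusted p = 8.3e-21) were lower with LPS, while Bsg, the chaperone of the lactate transporters, passed in neither comparison (-0.04, adjusted p = 0.37, in KO and -0.07, adjusted p = 0.079, with LPS). Of 13 tested HIF1 regulators, 5 were higher and 2 lower in KO, and 5 were higher and 7 lower with LPS. That is 53.8% called in KO and 92.3% with LPS, beside 58.4% and 73.7% of all tested genes. Epas1, which encodes the related factor HIF2A, was lower with LPS by -1.77 (SE 0.09, adjusted p = 1.1e-24) where Hif1a was higher. Myc, a transcription factor that also acts on glycolytic genes, was lower by -0.95 in KO (SE 0.08, adjusted p = 3.2e-15) and by -1.92 with LPS (SE 0.10, adjusted p = 1.6e-24).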
